A study of Mus musculus with 30 samples.

Results

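Toll-like receptors are the membrane sensors with which microglia, the macrophages of the brain, detect microbial products and damaged-cell material. The genes described here are 10 by name: the receptors Tlr1, Tlr2, Tlr3, Tlr4, Tlr7, Tlr9 and Tlr13, the co-receptors Cd14 and Ly96, and the adaptor Myd88. All 10 were found by symbol among the 13788 genes of the deposited table, and all 10 passed the filter on low values, with which 13722 genes were tested. They were chosen by name, with earlier results of these data known.

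The receptors at the cell surface, Tlr2 with its partner Tlr1 and Tlr4 with its partner Ly96 (MD-2), bind bacterial lipopeptides and lipopolysaccharide, and Cd14 hands ligands to both. Tlr3, Tlr7, Tlr9 and Tlr13 sit in endosomes and bind double-stranded RNA, single-stranded RNA, CpG DNA and bacterial ribosomal RNA. Myd88 links all of these receptors except Tlr3 to the kinases that activate NF-kappaB, whose targets include genes of the pathway itself. Tlr2, Tlr4 and Cd14 are also known to take part in the response of microglia to fibrillar amyloid-beta.

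RNA-seq was made from microglia shaken off primary cultures of mouse brain, in 30 libraries and 10 groups of 3. Cultures came from wild-type (WT) mice or mice labelled PD-1 KO, which carry a deletion of the immune checkpoint receptor PD-1 according to the label. Each genotype was sampled at 0 h, at 2 h and 8 h without treatment, and at 2 h and 8 h in medium holding amyloid-beta, the peptide that accumulates in Alzheimer plaques. The numbers in the sample titles run unbroken through 0 h and 2 h, and all 8 h libraries follow after a gap. What the gap stands for is not given, so in comparisons of 8 h with 0 h or 2 h it cannot be told apart from time. The labels give no age, sex, strain or medium of the untreated cultures, and do not say whether replicates came from separate animals or cultures, so the p-values reflect only how these libraries vary, which may be technical. Values are reads per gene scaled to each library's depth and listed at no less than 1, called signal here. Depth ran from 4227019 to 48509985 reads (median 9603082), and the members held 45 to 18151 reads in a library, so all were well above the floor in each library.

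The gene for PD-1, Pdcd1, went against its label. It stood at the floor of 1 in all 15 WT libraries and between 6.02 and 25.3 in the other 15, labelled PD-1 KO. The deposited gene sums do not show which exons the reads cover, so they do not tell an intact transcript from a deleted one, and every genotype direction below is that of the labels. The libraries labelled PD-1 KO also held more RNA of astrocyte and ependymal markers. The summed signal of 9 astrocyte markers was 1270 to 3867 in WT and 11325 to 28482 in libraries labelled PD-1 KO. The ranges of the 5 ependymal markers (71.4 to 429 against 1283 to 5853) did not overlap either. Nor did those of the 11 oligodendrocyte lineage markers (2494 to 5688 against 6541 to 10829), of which 7 were called higher and 3 lower in the mean over conditions. Neuron markers were mixed. The sum of 8 was 543 to 951 in WT against 1087 to 1811, but Map2 alone reached 1506, and 4 were called higher (Map2, Tubb3, Stmn2 and Nefl) and 4 lower (Snap25, Syt1, Rbfox3 and Gad1). For 7 fibroblast and vascular markers the ranges did overlap, at 52.5 to 281 in WT and 118 to 704 in libraries labelled PD-1 KO. Of these 7, 4 were called higher and 1 lower in the mean over conditions. Within conditions their sums overlapped at 0 h and 2 h, but not at 2 h with amyloid-beta, 8 h or 8 h with amyloid-beta. None of 13 neutrophil, lymphocyte and red cell markers was listed. All 10 microglia markers were present, with a summed signal of 55618 to 102753 in WT and 41536 to 75593 in libraries labelled PD-1 KO, although the homeostatic markers P2ry12 (median 89.0) and Tmem119 (median 42.1) were low. The part of these markers in the results below was not tested. In bulk RNA, fewer cells of a type and less RNA per cell cannot be told apart.

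RefSeq promoter windows (GRCm38.p6, from 250 bases before to 50 after a start) were used for 6 of the 10 genes. Shown are those of Tlr2, the gene with the most calls here, of Tlr3, which shares its motif, and of Tlr13, which moved the other way. Both strands were searched, and capitals mark matches to the kappaB consensus in Tlr2 and Tlr3 and to the PU.1 core GAGGAA in Tlr13. The windows are Tlr2 at chr3:83841559-83841858, minus strand, Tlr3 at chr8:45410331-45410630, minus strand, and Tlr13 at chrX:106143025-106143324, plus strand.
Tlr2: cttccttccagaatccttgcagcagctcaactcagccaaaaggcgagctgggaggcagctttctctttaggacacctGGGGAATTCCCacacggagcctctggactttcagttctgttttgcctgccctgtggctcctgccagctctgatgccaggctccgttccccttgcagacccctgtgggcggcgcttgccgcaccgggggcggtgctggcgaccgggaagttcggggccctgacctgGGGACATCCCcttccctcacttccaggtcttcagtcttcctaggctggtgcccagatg
Tlr3: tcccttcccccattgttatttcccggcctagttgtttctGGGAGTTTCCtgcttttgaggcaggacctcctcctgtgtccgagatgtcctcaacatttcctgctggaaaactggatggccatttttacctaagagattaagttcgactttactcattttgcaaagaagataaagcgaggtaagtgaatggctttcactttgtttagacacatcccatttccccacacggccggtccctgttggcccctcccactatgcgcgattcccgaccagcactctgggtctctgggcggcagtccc
Tlr13: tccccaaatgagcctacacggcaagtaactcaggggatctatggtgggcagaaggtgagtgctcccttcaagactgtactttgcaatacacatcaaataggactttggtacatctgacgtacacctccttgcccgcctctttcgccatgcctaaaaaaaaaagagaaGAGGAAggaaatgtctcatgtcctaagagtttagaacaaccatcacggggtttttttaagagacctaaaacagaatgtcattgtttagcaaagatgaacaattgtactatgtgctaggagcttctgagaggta
The kappaB consensus matched 3 times in the Tlr2 window, 2 of them overlapping at -173 and -172 from the start and the third at -8, and once in that of Tlr3, at -211. It was in 4.51% of 32851 promoter windows. GAGGAA, a sequence bound by the myeloid factor PU.1, was in the windows of Tlr13 and Tlr9, in 1 of the 2 windows of Tlr1, and in 28.3% of all windows. A search for the AP-1 motif TGANTCA, in 7.81% of all windows, found Tlr9, and the core of the interferon-stimulated response element, in 3.44%, was found in Myd88. No window was found for Tlr4, Tlr7 and Ly96. Cd14 was not searched, because member windows on its chromosome, 18, were left out. These matches are letters in a window, not shown sites.

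Levels were compared between genes per kilobase of exon. Cd14 had the highest median over the 30 libraries, at 1840.1 signal per kb, followed by Tlr13 at 1097, Tlr7 at 495, Myd88 at 283, Tlr2 at 215, Tlr4 at 175 and Ly96 at 147. Tlr9 (85.7), Tlr1 (46.2) and Tlr3 (35.4) were the lowest. Only Tlr13 over Tlr7 and Tlr7 over Myd88 held in all 30 libraries. Ly96 was above Tlr9, and Tlr9 above Tlr1, in 28. Cd14 was above Tlr13 in 24, Myd88 above Tlr2 in 21, Tlr2 above Tlr4 in 24, Tlr4 above Ly96 in 25 and Tlr1 above Tlr3 in 21. Myd88 and Tlr2 had means of 285 and 184 signal per kb in WT and 268 and 288 in libraries labelled PD-1 KO. Their order varied with condition under that label. Myd88 was higher at 0 h (257 and 205) and at 2 h with amyloid-beta (262 and 205). Tlr2 was higher at 2 h (249 and 257), 8 h (304 and 438) and 8 h with amyloid-beta (270 and 334). Across the 10 group means Cd14 varied 4.27-fold and Tlr2 4.26-fold, against 1.30-fold for Myd88 and 1.49-fold for Tlr3.

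**Figure D1:**
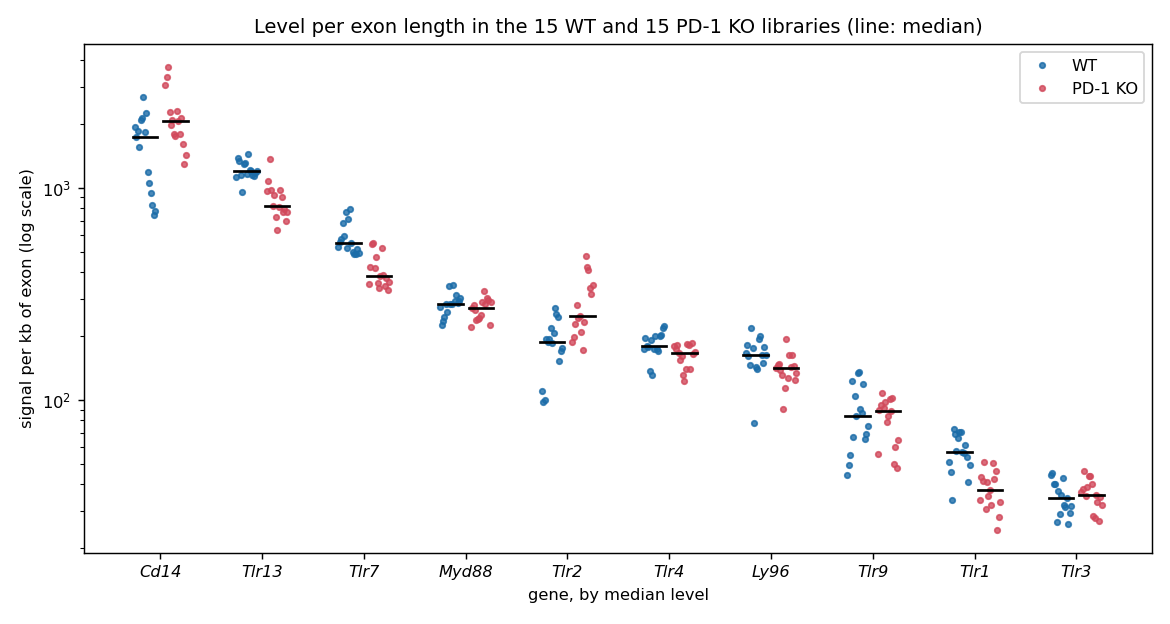
Signal per kb of exon (log axis) of the 10 genes in each of the 15 WT and 15 PD-1 KO libraries, with the median of each as a line. Genes are ordered by their median over all 30 libraries, from Cd14 at 1840.1 to Tlr3 at 35.4; Tlr2 and Cd14 spread most.

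The genes lie on 8 chromosomes of the mouse genome (GRCm38): Tlr1 on chromosome 5 (64924679 to 64933563), Tlr2 on 3 (83836272 to 83841767), Tlr3 on 8 (45395665 to 45411080), Tlr4 on 4 (66827584 to 66930284), Tlr7 on X (167304929 to 167330558), Tlr9 on 9 (106222598 to 106226883), Tlr13 on X (106143204 to 106160493), Cd14 on 18 (36725067 to 36726798), Ly96 on 1 (16688051 to 16709611) and Myd88 on 9 (119335934 to 119341411). Exons of Tlr3 overlap the antisense gene Gm45542 and exons of Myd88 overlap Acaa1a on the other strand. Whether counting used strand is not given in the sources used here, so reads from those overlaps cannot be told apart. Tlr1 lies beside its close relative Tlr6, and reads that fit both may be split between them.

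Genotype was compared in each of 5 conditions. Tlr2 and Cd14 were higher in most conditions where libraries carried the label PD-1 KO, and Tlr1, Tlr7 and Tlr13 were lower. Counts of members that passed lay near the share of all tested genes that passed, so the counts by themselves are no result about these genes. At 0 h 2 of 10 members passed, both higher, where 20.7% of genes did, and at 2 h 1 was higher and 3 lower, where 32.2% did. At 2 h with amyloid-beta 4 were lower, where 38.9% of genes passed. At 8 h 2 were higher and 1 lower, where 27% of genes passed, and at 8 h with amyloid-beta 2 were higher and 3 lower, where 33.7% did. As a mean over the 5 conditions 7 of 10 passed, where 59.5% of genes did. In that mean Tlr2 (0.64 ± 0.04) and Cd14 (0.52 ± 0.06) were higher, and Tlr1 (-0.58 ± 0.08), Tlr7 (-0.51 ± 0.07), Tlr13 (-0.48 ± 0.06), Ly96 (-0.21 ± 0.09) and Tlr4 (-0.17 ± 0.06) were lower, with the call for Ly96 marginal (adjusted p = 0.0463).

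The mean for Ly96 was lost under limma without trend and when any of 19 of the 30 libraries was left out. The shares of genes called higher were sensitive to scaling. With quantile normalization they went from 66.8% to 51.3% at 0 h, from 58.5% to 42.3% at 2 h, from 57.1% to 40.4% at 2 h with amyloid-beta, from 66.6% to 46.0% at 8 h, from 65.3% to 40.9% at 8 h with amyloid-beta and from 51.0% to 34.2% in the mean. The median of all genes moved by up to -0.13. The directions of Tlr2, Cd14, Tlr1, Tlr7 and Tlr13 in the comparisons they passed held under it. Astrocyte markers (9 of 9) and ependymal markers (5 of 5) were called higher in each of these comparisons. Microglia markers were mixed. Of 10, 7 were called higher and 2 lower at 0 h, and 1 higher and 5 lower at 2 h. At 8 h 3 were higher and 2 lower, and at 8 h with amyloid-beta 3 were higher and 3 lower. At 2 h with amyloid-beta 0 were higher and 6 lower. Their summed signal was then 83825 to 102753 in WT and 41536 to 50925 in libraries labelled PD-1 KO.

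Tlr2, the lipopeptide receptor, stood above WT under the PD-1 KO label at 0 h, 2 h, 8 h and 8 h with amyloid-beta, and Cd14 was higher at 0 h, 8 h and 8 h with amyloid-beta. At 2 h with amyloid-beta neither passed. At 0 h, Tlr2 signal was 332, 295 and 301 in WT and 566, 596 and 688 under the PD-1 KO label. At 8 h it was 819, 765 and 745 in WT and 1439, 1281 and 1241 in the others, and at 8 h with amyloid-beta 461, 515 and 529 against 1020.5, 952 and 1045. In none of these 3 conditions did the genotypes overlap. The log2 differences (on log2(signal + 1), ± SE) were 0.99 ± 0.10 at 0 h (adjusted p = 3.86e-08), 0.76 ± 0.10 at 8 h (adjusted p = 1.66e-06) and 1.004 ± 0.10 in amyloid-beta medium at 8 h (adjusted p = 6.78e-09).

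At 2 h the gap was smaller, with Tlr2 at 581, 565 and 585 in WT and at 841, 735 and 747 in the other group, again without overlap (0.42 ± 0.10, adjusted p = 0.00183). At 2 h with amyloid-beta it was 661, 556 and 625 in WT and 632, 516 and 706 in libraries labelled PD-1 KO, which overlapped (0.00 ± 0.10, adjusted p = 0.994). Cd14 followed a like outline. Its signal was 3344, 3016 and 3208 in WT at 0 h and 5291, 5760.1 and 6414 in libraries labelled PD-1 KO (0.86 ± 0.13, adjusted p = 1.85e-05), with no overlap. At 8 h it was 2064, 1817 and 1639.6 against 3593, 3096 and 3698 (0.91 ± 0.13, adjusted p = 5.12e-06). In amyloid-beta medium at 8 h it was 1437, 1291 and 1347 against 2792, 2248 and 2479 (0.88 ± 0.13, adjusted p = 4.26e-06). All WT libraries were below all others in both. At 2 h the genotypes overlapped (0.15 ± 0.13, adjusted p = 0.428), as they did at 2 h with amyloid-beta (-0.20 ± 0.13, adjusted p = 0.236).

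The difference between conditions was tested for itself, in a pair of contrasts added after these values were seen. Among amyloid-beta cultures the genotype difference was larger at 8 h than at 2 h by 1.003 ± 0.14 for Tlr2 (adjusted p = 0.000307) and by 1.08 ± 0.19 for Cd14 (adjusted p = 0.00140). Those 2 of 10 members passed, both higher, where 1.51% of all tested genes did. As the contrasts were added after these values were seen, that count is no result about the members. Among untreated cultures the same contrast gave 0.34 ± 0.14 for Tlr2 (adjusted p = 0.294) and 0.77 ± 0.19 for Cd14 (adjusted p = 0.0963). There 0 of 10 passed in limma and 0 in voom, with 2 at an unadjusted p under 0.05. Of all 13722 genes 0.0219% were called in limma and 32 in voom, and 1902 had an unadjusted p under 0.05. In the same amyloid-beta contrast no astrocyte marker of 9 and 4 oligodendrocyte lineage markers of 11 passed, the latter higher, as did 2 microglia markers of 10. All 10 microglia markers were above 0 there, with a median of 0.66 against 0.01 for all genes. Of all genes called, 88.4% were higher. The part of that shift in the Tlr2 and Cd14 differences was not tested.

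**Figure D2:**
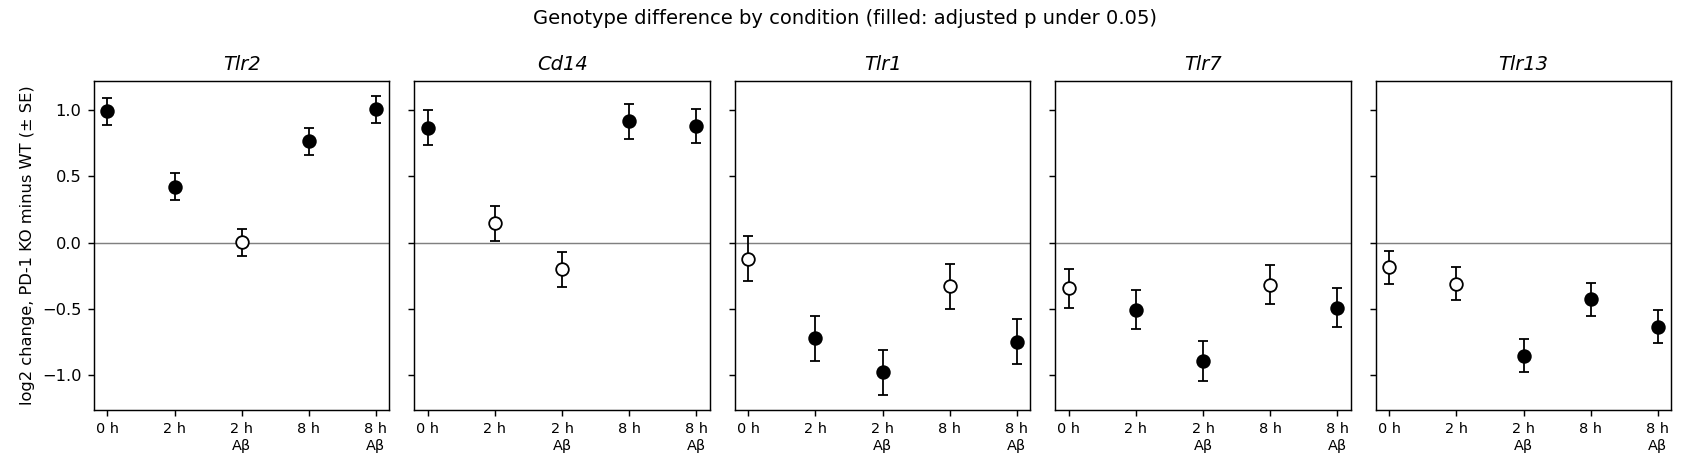
log2 difference between libraries labelled PD-1 KO and WT (± SE from limma, 3 libraries a group) for 5 genes in the 5 conditions, where Aβ is amyloid-beta and filled points passed an adjusted p of 0.05. Tlr2 and Cd14 lie near 0 at 2 h with amyloid-beta and near 1 at 0 h and 8 h, while Tlr1, Tlr7 and Tlr13 lie below 0 throughout.

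Endosomal Tlr7 and Tlr13 and surface Tlr1 were lower in libraries labelled PD-1 KO, most so at 2 h with amyloid-beta. There Tlr1, which pairs with Tlr2, had a signal of 221, 236 and 237 in WT and 118, 126 and 107 in the others (-0.98 ± 0.17, adjusted p = 3.59e-05). Tlr7 was 2117, 2897 and 3243 in WT against 1453, 1375 and 1560.0 (-0.89 ± 0.15, adjusted p = 2.09e-05). Tlr13 was 5637, 5009 and 6205 in WT against 3149, 2720.5 and 3492 (-0.85 ± 0.12, adjusted p = 3.03e-06). In all 3 genes every WT library was above every library labelled PD-1 KO. At 8 h with amyloid-beta the genes were lower too, Tlr1 by -0.75 ± 0.17 (adjusted p = 0.000892), Tlr13 by -0.63 ± 0.12 (adjusted p = 0.00016) and Tlr7 by -0.49 ± 0.15 (adjusted p = 0.011), also with no overlap. The Tlr7 call there was lost without replicate 2 of that group labelled PD-1 KO (-0.43). Tlr4 (-0.31, adjusted p = 0.0512), Tlr9 (-0.29, adjusted p = 0.366) and Ly96 (-0.28, adjusted p = 0.308) did not pass there, though their groups did not overlap either.

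Without treatment the calls were fewer. At 2 h Tlr1 was 245, 231 and 192 in WT and 171, 103 and 137 in the others (-0.72 ± 0.17, adjusted p = 0.0016), and Tlr7 differed by -0.50 ± 0.15 (adjusted p = 0.00987). The Tlr7 call was lost without WT replicate 3 (-0.41) or without replicate 2 of the group labelled PD-1 KO (-0.41). At 8 h Tlr13 was 5232, 5137 and 4934 in WT against 4211, 3909.7 and 3321 (-0.43 ± 0.12, adjusted p = 0.0101), and lost its call without replicate 3 of the group labelled PD-1 KO (-0.33). Ly96, the partner of Tlr4, was lower at 2 h (149, 222 and 180.1 against 141, 133 and 92.1; -0.59 ± 0.20, adjusted p = 0.0253), and its call was lost without WT replicate 2 (-0.45), WT replicate 3 (-0.60) or replicate 3 of the other group (-0.40). Tlr4 passed at 2 h with amyloid-beta, where its groups overlapped (731, 962 and 1116 against 730.0, 679 and 779; -0.34 ± 0.12, adjusted p = 0.0295). That call was lost without WT replicate 2 (-0.31) or 3 (-0.20), or replicate 1 (-0.34) or 2 (-0.29) of the group labelled PD-1 KO.

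Tlr3 and the adaptor Myd88 passed in no genotype comparison. Tlr3 differed by between -0.10 and 0.20, and its genotypes overlapped in all 5 conditions. Myd88 lay between -0.21 and 0.07 and overlapped likewise. Tlr9 ranged from -0.39 to 0.64. Its highest difference was at 0 h, where 155, 172 and 192 in WT met 192, 310.1 and 329 in the other group without overlap (0.64 ± 0.24, adjusted p = 0.0512). It passed at 0 h without replicate 1 of that group (0.89) and when only the groups compared were fitted (0.64).

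**Figure D3:**
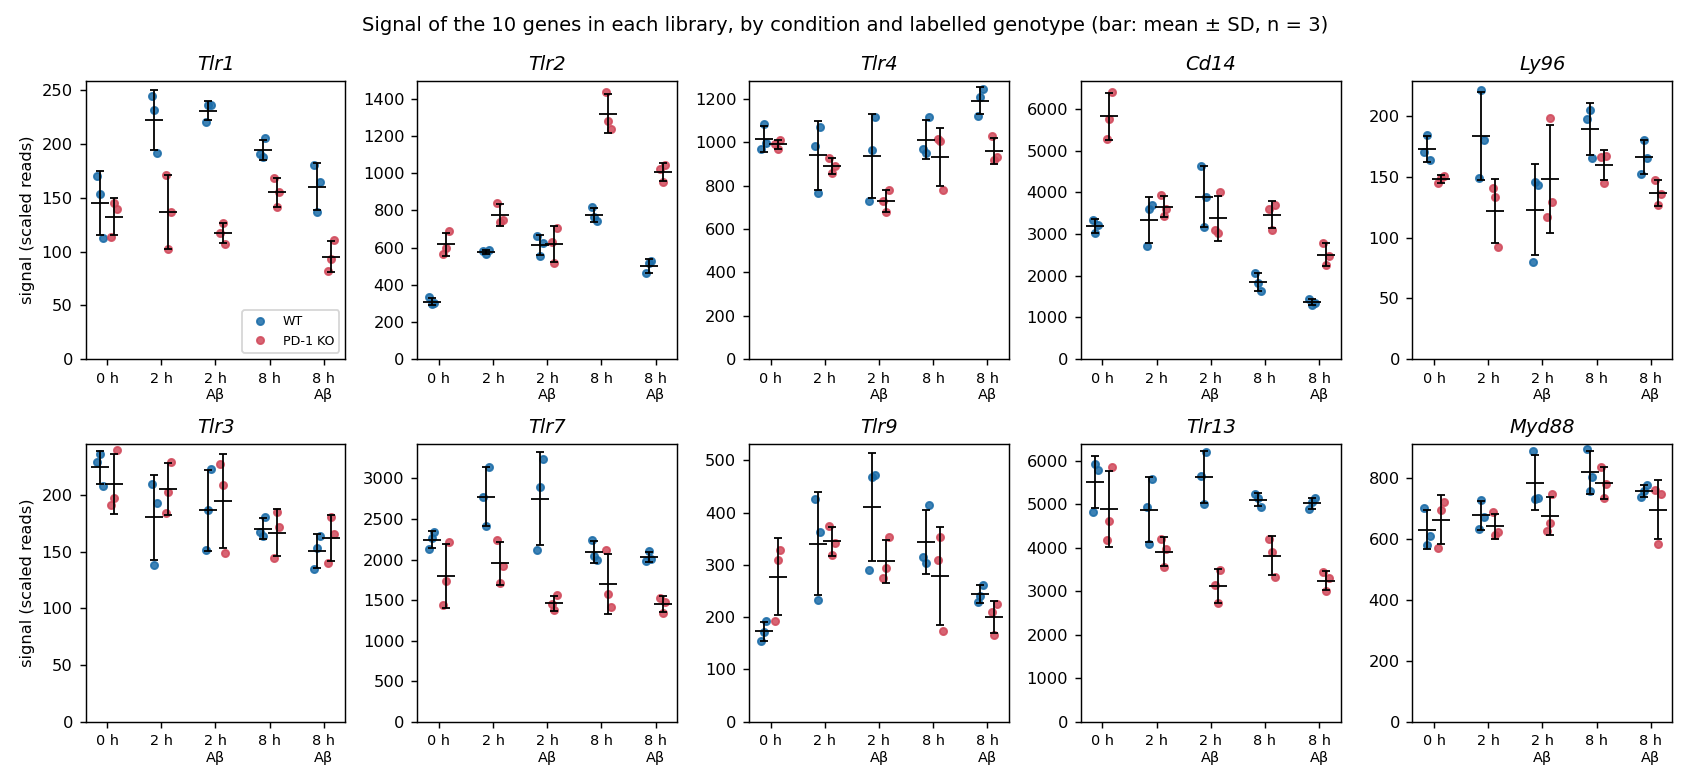
Signal of each gene in each library (points, blue WT, red PD-1 KO) in the 5 conditions, with mean ± SD of 3 libraries; Aβ is amyloid-beta. Tlr2 runs from 295 to 1439 and Cd14 from 1291 to 6414, with the genotypes apart at 0 h and 8 h, while Tlr3 and Myd88 overlap in every condition.

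By 8 h in culture Tlr2 was higher and Cd14 lower than at 0 h, where time cannot be told apart from the gap in title numbers. In WT, Tlr2 signal went from 309 ± 19.5 (SD, n = 3) at 0 h to 577 ± 10.3 at 2 h and 776 ± 38.3 at 8 h, with no overlap between times. The log2 changes were 0.90 ± 0.10 at 2 h (adjusted p = 3.49e-06) and 1.33 ± 0.10 at 8 h (adjusted p = 1.52e-09). In libraries labelled PD-1 KO it went from 616 ± 63.6 to 774 ± 57.9 and 1320.1 ± 105, and passed at 8 h (1.10 ± 0.10, adjusted p = 4.64e-08) but not at 2 h (0.33 ± 0.10, adjusted p = 0.181). Cd14 fell by 8 h in both, with a log2 change of -0.80 ± 0.13 in WT (adjusted p = 0.000265) and of -0.75 ± 0.13 in libraries labelled PD-1 KO (adjusted p = 0.000613). At 2 h it was already lower in the latter (-0.67 ± 0.13, adjusted p = 0.00751) and was 0.05 ± 0.13 from its starting level in WT. That 2 h call was lost without replicate 3 at 0 h (-0.60) or replicate 2 at 2 h (-0.62) of the groups labelled PD-1 KO.

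Tlr9, the CpG DNA receptor, rose in WT from 155, 172 and 192 at 0 h to 427, 232 and 363 at 2 h (0.94 ± 0.24, adjusted p = 0.0185) and 314, 303 and 414 at 8 h (0.98 ± 0.24, adjusted p = 0.0112). The libraries at 0 h lay below all others. The 2 h call was lost without WT 0 h replicate 2 (0.94), WT 2 h replicate 1 (0.75) or 3 (0.87), when only the groups compared were fitted (0.94) and in voom (0.87). The 8 h call was lost without WT 8 h replicate 3 (0.84) and in voom (0.92). Tlr1 rose in WT at 2 h by 0.62 ± 0.17 (adjusted p = 0.0295), and this was lost under quantile normalization (0.58), with only the groups compared (0.62), and without WT 0 h replicate 2 (0.67) or 3 (0.45) or WT 2 h replicate 1 (0.55) or 2 (0.59). Myd88 passed in WT at 8 h, from 702, 578 and 609.8 to 895, 756 and 802 (0.38 ± 0.11, adjusted p = 0.0383), and was lost under 5 of 8 other settings and without WT 0 h replicate 2 (0.32) or 3 (0.36) or WT 8 h replicate 1 (0.31) or 3 (0.39).

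In WT 3 members passed at 2 h, all higher, where 4.75% of genes did, and at 8 h 3 were higher and 1 lower, where 6.05% did. The 2 h share depends on the fit: 652 genes were called at 2 h when all groups shared 1 estimate of the spread, and 32 of all genes, with 1 member among them, when only the groups compared were fitted. In libraries labelled PD-1 KO, 1 member was lower at 2 h, where 0.634% of genes passed, and at 8 h 1 was higher and 1 lower, where 3.29% did. Tests of whether genotype altered the time course passed for 0 of 10 members at 2 h and at 8 h in limma and in voom, with 3 and 1 at an unadjusted p under 0.05. Over all 13722 genes 0.736% and 0.27% passed, and 1807 and 1427 had an unadjusted p under 0.05. Tlr2 (-0.57 ± 0.14, adjusted p = 0.0528) and Cd14 (-0.72 ± 0.19, adjusted p = 0.0633) lay just outside at 2 h. Microglia markers rose in WT at 2 h in 6 of 10 (median of all 10, 0.71), and none was called at 2 h in libraries labelled PD-1 KO. The genotype difference of that change was called lower for 4 of 10 (median -0.68), while no astrocyte or ependymal marker passed in any of the 3 comparisons. In WT at 8 h, 4 microglia markers of 10 rose, 4 oligodendrocyte lineage markers of 11 fell and no astrocyte marker passed.

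Amyloid-beta medium lowered Tlr2 at 8 h in WT. Signal was 819, 765 and 745 without and 461, 515 and 529 with amyloid-beta, with a wide gap between them (-0.63 ± 0.10, adjusted p = 0.0012). It was the only member of 10 called in that comparison, where 2.18% of genes passed. Without overlap between the groups, Tlr2, Cd14, Tlr1 and Tlr9 were lower and Tlr4 was higher (0.24 ± 0.12, adjusted p = 0.404). The share of all genes without overlap was not computed, here or in any other comparison. Lack of overlap by itself is therefore no result about these genes. Cd14 did not pass (-0.43 ± 0.13, adjusted p = 0.0813), but did under quantile normalization (-0.47) and without WT 8 h replicate 3 (-0.51). In the same comparison 4 of 9 astrocyte markers, 4 of 11 oligodendrocyte lineage markers, 1 of 5 ependymal markers and 1 of 10 microglia markers were lower, and the summed signal of astrocyte markers was 1808 to 3312 without and 1270 to 1387 with amyloid-beta.

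Under the PD-1 KO label at 8 h no member passed in limma. Groups did not overlap for Tlr2 (1439, 1281 and 1241 against 1020.5, 952 and 1045), Cd14 and Tlr1, again without the share over all genes. Their changes were -0.39 ± 0.10 (adjusted p = 0.134), -0.47 ± 0.13 (adjusted p = 0.193) and -0.70 ± 0.17 (adjusted p = 0.1), so 0 of 10 members were called where 0.0583% of genes were. An unadjusted p was under 0.05 for 3, and voom called 1, Tlr1. Of all 13722 genes 1036 had an unadjusted p under 0.05, and voom called 48. At 2 h amyloid-beta called 0 of 10 members in either genotype by limma or voom, where 0% of genes were called by limma in both. At that time 1 member in WT and 4 in libraries labelled PD-1 KO had an unadjusted p under 0.05, as did 681 and 615 of all genes. Voom called 15 and 0 genes in those comparisons. The member in WT was Ly96 (-0.61 ± 0.20). The 4 under the PD-1 KO label were Tlr2 (-0.33 ± 0.10), Tlr4 (-0.29 ± 0.12), Tlr7 (-0.41 ± 0.15) and Tlr13 (-0.33 ± 0.12), all lower.

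The amyloid-beta change of Tlr2 in WT differed between times. It was 0.09 ± 0.10 at 2 h and -0.63 ± 0.10 at 8 h, a difference of -0.72 ± 0.14 (adjusted p = 0.0164). It was the only member of 10 to pass, where 0.27% of genes did, and its call was lost when only the groups compared were fitted and without WT 2 h replicate 2 (-0.70), WT 2 h amyloid-beta replicate 3 (-0.70), WT 8 h replicate 1 (-0.68) or WT 8 h amyloid-beta replicate 1 (-0.66). For the PD-1 KO label the same difference was -0.06 ± 0.14 (adjusted p = 1), and 0 of 10 members passed in limma or voom with 1 at an unadjusted p under 0.05, where 0% of genes passed (337 at an unadjusted p under 0.05, 0 by voom). Whether genotype altered the amyloid-beta change was also tested. At 2 h 0 of 10 passed, with 3 at an unadjusted p under 0.05: Tlr2 (-0.42 ± 0.14), Tlr13 (-0.54 ± 0.17) and Ly96 (0.87 ± 0.28). Of all genes 0.051% were called, 663 had an unadjusted p under 0.05 and voom called 2. At 8 h 0 of 10 passed, with 0 at an unadjusted p under 0.05. There 0% of genes were called, 810 had an unadjusted p under 0.05 and voom called 0. Voom called 0 members in both.

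**Figure D4:**
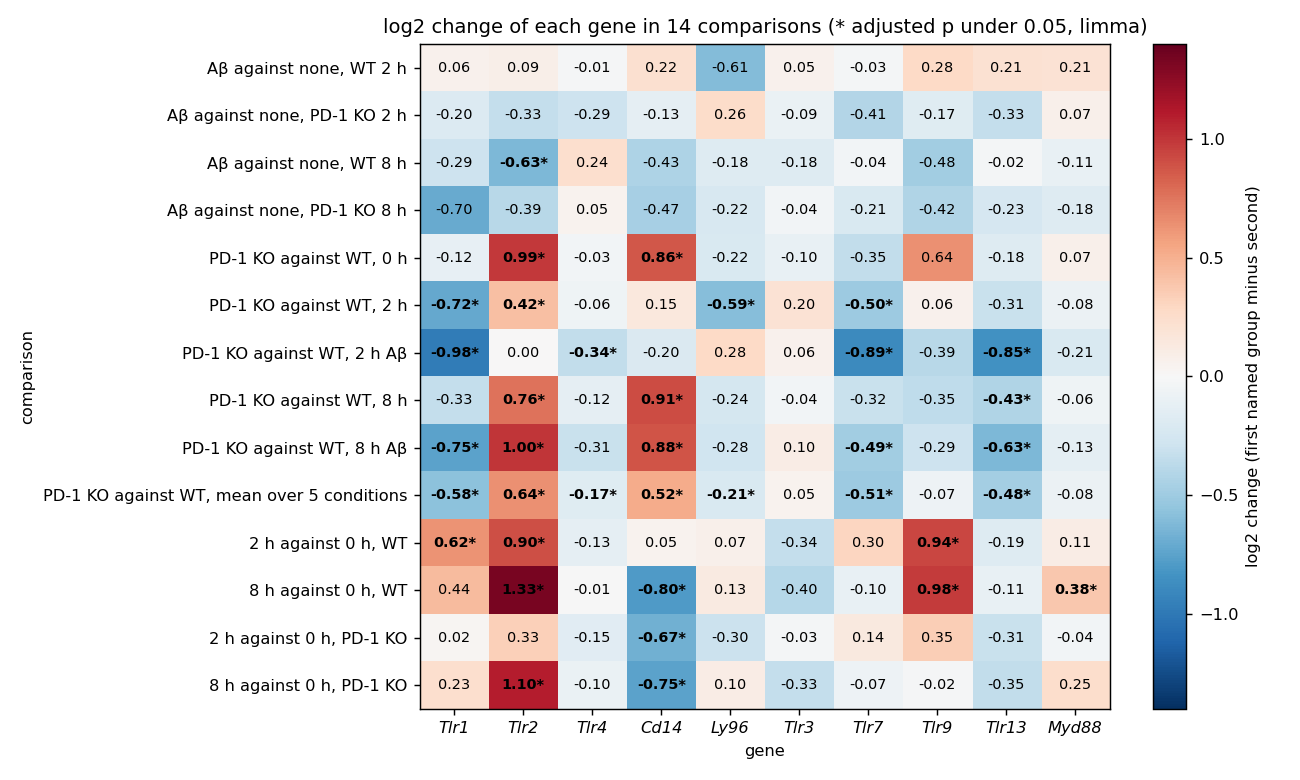
log2 change on log2(signal + 1) of each gene (columns) in each comparison between groups (rows, first-named group minus second), with an asterisk for an adjusted p under 0.05 in limma; Aβ is amyloid-beta. Red marks higher and blue lower. Tlr2 holds the highest value, 1.33 for 8 h against 0 h in WT. Tlr1 holds the lowest, -0.98 for PD-1 KO against WT at 2 h with amyloid-beta.

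Related genes of the pathway were read from lists chosen with earlier results of these data known. Of 5 further Toll-like receptors, Tlr6 and Tlr8 were in the table, and both were lower in libraries labelled PD-1 KO in the mean over conditions (-0.56 ± 0.09 and -0.64 ± 0.06). Of 13 receptor partners, chaperones and proteases 1 was higher and 8 lower, where 59.5% of all tested genes passed. Lbp, which brings lipopolysaccharide to Cd14, was 4.41 ± 0.19 higher, and Ctss, an endosomal protease that processes receptors, was -0.72 ± 0.05, Ctsb -0.62 ± 0.07 and Cd180, a relative of Tlr4, -0.61 ± 0.05. Of 22 relays 4 were higher and 11 lower, against the same share. Irf7, which drives interferon genes downstream of Tlr7 and Tlr9, was -1.18 ± 0.11, and the kinase gene Ikbke was 1.14 ± 0.07.

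Of 11 brakes on the pathway 5 were higher and 2 lower, with Socs3 at 1.39 ± 0.12, Socs1 at 0.82 ± 0.17, the NF-kappaB inhibitor Nfkbia at 0.69 ± 0.05 and Sarm1 at 0.56 ± 0.14. The share of all genes that passed in that comparison was 59.5%. The counts of partners, relays and brakes lay near it, so by themselves they are no result about these lists. The median of all genes was -0.02 against -0.22 for the partners, -0.07 for the relays and 0.03 for the brakes. Amyloid-beta at 8 h in WT lowered Irf7 (-1.63 ± 0.25, adjusted p = 0.00092) and Lbp (-2.16 ± 0.43, adjusted p = 0.00646, groups overlapping) and raised Ikbkg, a scaffold of the kinase complex (0.47 ± 0.10, adjusted p = 0.0128). The genotype difference of the amyloid-beta change at 2 h was -2.24 ± 0.35 for Irf7 (adjusted p = 0.00537), whose mean signal was 403 ± 39.8 (SD, n = 3) in WT and 49.0 ± 9.39 under the PD-1 KO label at 2 h with amyloid-beta. During culture Nfkbia rose in WT at 8 h by 1.10 ± 0.11 (adjusted p = 1.9e-07) and Ikbke by 1.84 ± 0.15 (adjusted p = 3.47e-09). The rise from 0 h to 2 h was smaller in libraries labelled PD-1 KO for both, by -0.67 ± 0.16 for Nfkbia (adjusted p = 0.0404) and -1.11 ± 0.21 for Ikbke (adjusted p = 0.0109). Some of these genes share exon sequence with a gene on the other strand. The pairs are Irf7 with Phrf1, Ikbkg with G6pdx, Ctsb with Fdft1, Cd180 with Mast4, and Ikbke with Gm28913 and Gm28914. As for the members, reads from those overlaps cannot be told apart.

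Across the 30 libraries the genes did not vary as a single block. Tlr7 and Tlr13 were the most alike members over all libraries, with r = 0.82, though r was 0.31 in the 15 WT libraries and 0.78 in the 15 labelled PD-1 KO. The correlation of their deviations from the group means was 0.75, below that of Tlr4 with Tlr9 (0.78) and Cd14 with Myd88 (0.76). Tlr1 and Tlr7 gave r = 0.76 over all libraries and 0.21 in the deviations from group means. Tlr2 and Cd14 showed little correlation over all libraries (r = 0.07), though their deviations within groups gave 0.60. Tlr3 and Myd88 ran against each other (r = -0.61). Among all 13721 other tested genes Tlr2 was most like Icam1 (r = 0.97), Rassf4 (0.95) and Cd69 (0.94), Tlr7 like Slfn5 (0.95), Tlr13 like Edem1 (0.94), Tlr4 like Ptbp3 (0.92), Cd14 like Dok2 (0.91) and Tlr1 like Fcrls (0.89). The nearest for Myd88 was Vav1 (0.85), for Tlr9 Slc7a8 (0.80), for Ly96 Cwc27 (0.78) and for Tlr3 Srebf2 (0.74). These are descriptions: libraries share groups, depth and cell make-up.

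**Figure D5:**
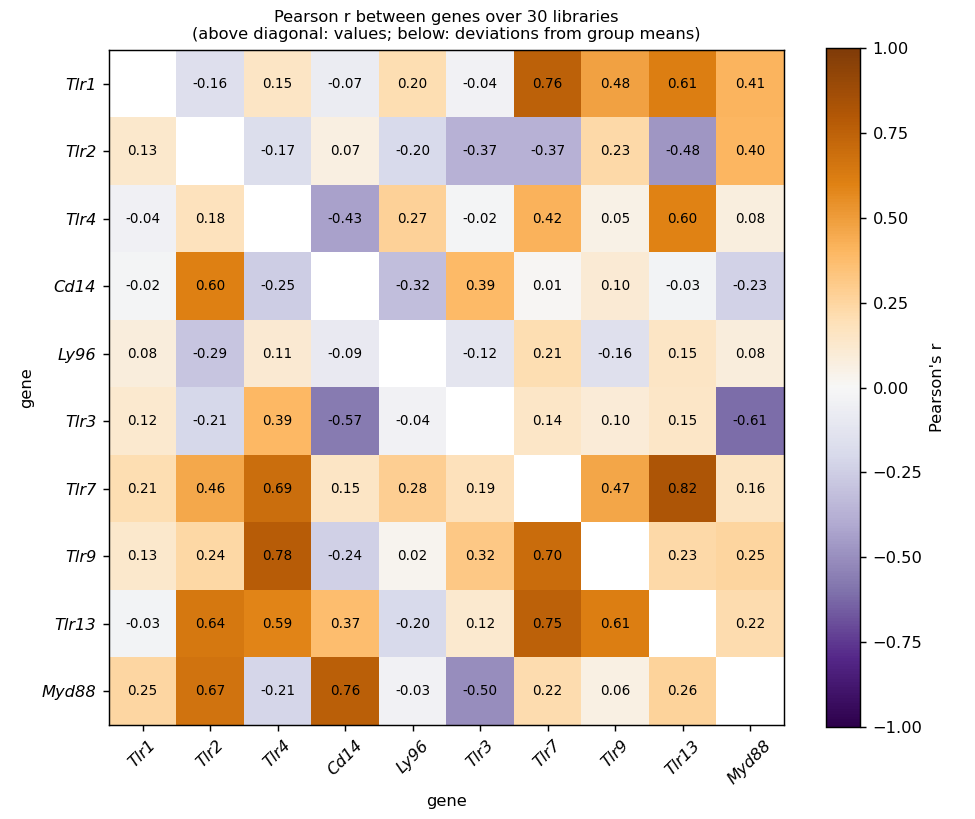
Pearson r between each pair of genes on log2(signal + 1) over 30 libraries (above the diagonal), and between their deviations from group means (below). Tlr7 and Tlr13 reach 0.82 and 0.75, while Tlr2 and Cd14 reach 0.07 and 0.60.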

How the data were processed

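Gene signal was taken from the authors' deposited table of 30 libraries. Per the submitters' processing notes, HISAT 0.1.5, Partek 6.6, R 3.0.2, DESeq2 and the mm10 build were used, without roles given. The deposited signal is reads per gene divided by a size factor for each library and floored at 1, as read from the values: below 5000 reads all values were whole multiples of what 1 read is worth within 0.05 (100% of values). Pooled or stranded counting is not given in the sources used here. The 10 groups followed the labels for genotype, time and treatment.

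Values were tested as log2(value + 1) in limma 3.58.1 (R 4.3.3) with an intensity trend, 1 mean per group, after keeping genes at 10 or more in at least 3 libraries. Benjamini-Hochberg adjustment ran over all 13722 tested genes in each comparison, with a threshold of 0.05, and the fold change of low genes is understated by the pseudocount. This fit does not weight libraries by depth, and voom does. Gene positions and exon lengths came from the GRCm38 annotation. All 10 members were tested in every comparison, and the figure of log2 changes gives each of them in every comparison between groups. Differences between such changes are given by name for some members only. Pathway genes are given as counts and the largest passing changes (up to 4 a list), and alike genes by the highest r. The members and lists were chosen with earlier results of these data known. Alternatives were pseudocount 10, other filters, quantile and TMM scaling, no trend, only the groups compared and single libraries left out. A voom fit on recovered reads, and the pair of contrasts of genotype between 8 h and 2 h, were added after seeing the data. A count test was planned only for raw counts, which the table does not hold.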

Additional observations from a re-analysis of the deposited data

Results flagged for a closer look

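3 differences between groups passed a test of the difference itself. The amyloid-beta change of Tlr2 in WT differed between 8 h and 2 h by -0.72 on the log2 scale. The genotype difference in amyloid-beta medium was larger at 8 h than at 2 h by 1.003 for Tlr2 and by 1.08 for Cd14. The last pair was tested after its values were seen, so its passing is no independent result.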

How the results depend on the processing

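No paired analysis was possible because the labels carry no replicate number shared between groups. No result reversed under any alternative run. Of 1760 single-gene results under other settings, 1737 stayed on their side of the threshold, 13 fell below it and 10 rose above it, and of 2040 without single libraries 1975, 48 and 17 did. Among values past the threshold in neither, 12 and 112 changed sign. The number of members past the threshold moved as follows. For amyloid-beta at 8 h in WT it was 2 under quantile normalization and 1 to 2 without single libraries, and in libraries labelled PD-1 KO 1 under voom. For the time difference of the amyloid-beta change in WT it was 0 with only the groups compared and 0 to 2 without single libraries. For genotype at 2 h it was 2 to 5 without single libraries. For 2 h against 0 h in WT it was 1 with only the groups compared and 1 to 3 without single libraries, and for 8 h in WT 2 under voom and 2 to 4 without single libraries. For 2 h against 0 h in libraries labelled PD-1 KO it was 0 to 1 without single libraries. For the genotype difference of 2 h against 0 h it was 1 with the filter at 50 and 0 to 2 without single libraries, and for that of 8 h against 2 h 0 to 1. The cause was not tested. Counts over all genes moved by over 1.5 times in these comparisons. With only the groups compared, 2 h against 0 h in WT went from 652 to 32, 8 h against 0 h in WT from 830 to 440, 2 h and 8 h against 0 h for the PD-1 KO label from 87 to 45 and from 452 to 157, amyloid-beta at 8 h from 299 to 68 in WT and from 8 to 14 for the PD-1 KO label, the time difference of the amyloid-beta change in WT from 37 to 3, and the genotype differences of 2 h against 0 h from 101 to 36, of 8 h against 0 h from 37 to 10, of 8 h against 2 h from 3 to 0 and of the amyloid-beta change at 8 h from 0 to 5. Quantile normalization gave 98 and 44 for amyloid-beta at 8 h in WT and for the PD-1 KO label, 17 for the time difference in WT and 16 for the genotype difference of 8 h against 2 h. Voom gave 106 and 48, 15 for amyloid-beta at 2 h in WT, 450 for 8 h against 0 h in WT, 9 and 32 for the genotype differences of 8 h against 0 h and against 2 h, and 2 for that of the amyloid-beta change at 2 h, where limma gave 7. Without trend the last was 2, amyloid-beta at 8 h for the PD-1 KO label 0 and the genotype difference of 2 h against 0 h 38. With pseudocount 10, amyloid-beta at 8 h in WT gave 141. Counts for genotype within a condition moved by less. The standard error of a difference between 2 groups ran from 0.10 for Tlr2 to 0.24 for Tlr9, and the part of depth in it was not tested.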
